A study of Homo sapiens with 6 samples.

Results

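The nuclear copies of mitochondrial genes described here are the rows of the human gene table that carry the name of a gene of mitochondrial DNA (mtDNA), such as MTCO1P12 or MTRNR2L8, but lie on a nuclear chromosome. By name there were 408 such rows among 60612, and 64 had a count above 0 when summed over 6 libraries. These 64 are described below, and the other 344 were listed at 0 in every library. They were thus chosen by their summed count, and the lowest among them was 2. The libraries were made from SNU-368, a hepatocellular carcinoma line by its labels, and fell into 3 libraries of cells with a short hairpin RNA against TFAM (shTFAM) and 3 of cells with a control hairpin (shCtrl). TFAM coats mtDNA and drives transcription from its promoters. The labels give no time after knockdown, no hairpin sequence and no clone, and do not tell if replicates came from separate cultures. A p-value below therefore reflects only how far these libraries scatter, which may be technical scatter.

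Nuclear copies of mtDNA arose when fragments of the mitochondrial genome were inserted into chromosomes during evolution. Most are pseudogenes that cannot encode the mitochondrial protein, because the nuclear and mitochondrial genetic codes differ and the copies have gathered substitutions. Young copies can stay so close to the mitochondrial sequence that a sequencing read fits both places, and the gene of mtDNA from which a copy derives is called its parent below. The parents encode subunits of the respiratory chain and of ATP synthase, and the ribosomal RNAs of the mitochondrial ribosome.

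How close a copy lies to its parent is shown first for a pair of neighbours on chromosome 1, because they take very different counts. Sequences are those of GENCODE 29 (GRCh38), written 5′ to 3′, and capitals mark each base at which copy and parent differ. MTATP8P1 (chr1:633535-633741, plus strand) is a copy of MT-ATP8, which encodes a small subunit of ATP synthase. Over 207 bases it differs at 5 positions, G27A, C90T, C96T, T138C and G180A, with positions counted from 1 at the first base of the parent gene and the parent's base given first.
MTATP8P1: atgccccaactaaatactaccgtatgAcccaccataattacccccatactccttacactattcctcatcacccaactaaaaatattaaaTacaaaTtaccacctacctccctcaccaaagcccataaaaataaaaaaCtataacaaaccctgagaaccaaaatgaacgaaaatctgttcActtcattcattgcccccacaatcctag
MT-ATP8: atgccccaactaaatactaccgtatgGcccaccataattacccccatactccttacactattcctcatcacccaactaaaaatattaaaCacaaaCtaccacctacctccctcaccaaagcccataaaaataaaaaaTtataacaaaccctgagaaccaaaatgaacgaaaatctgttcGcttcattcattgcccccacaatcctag

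MTATP6P1 (chr1:633696-634376, plus strand), a copy of MT-ATP6, the membrane subunit of ATP synthase that forms part of its proton channel, starts within MTATP8P1. Its longest stretch identical to the parent is 141 bases, shown here between the substitutions that end it, A192G and A334G.
MTATP6P1: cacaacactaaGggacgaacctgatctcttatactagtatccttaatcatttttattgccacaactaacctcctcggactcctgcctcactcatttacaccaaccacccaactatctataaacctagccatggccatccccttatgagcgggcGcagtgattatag
MT-ATP6: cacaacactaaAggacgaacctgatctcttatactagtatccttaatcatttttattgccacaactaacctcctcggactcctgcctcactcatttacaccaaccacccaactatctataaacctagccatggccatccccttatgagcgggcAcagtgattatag

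MTCO2P2 is the copy with the largest fold difference between the groups among those that passed the test. It lies on chromosome 18 (chr18:47853235-47853437 for the stretch shown, minus strand) inside an intron of SMAD2, a transducer of TGF-beta signals, on the same strand as that gene. It matches 203 bases of MT-CO2, the gene of a cytochrome c oxidase subunit, with 9 differences.
MTCO2P2: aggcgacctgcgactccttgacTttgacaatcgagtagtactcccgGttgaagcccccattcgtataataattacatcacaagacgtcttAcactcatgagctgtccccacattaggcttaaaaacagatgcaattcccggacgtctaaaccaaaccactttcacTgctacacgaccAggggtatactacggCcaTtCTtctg
MT-CO2: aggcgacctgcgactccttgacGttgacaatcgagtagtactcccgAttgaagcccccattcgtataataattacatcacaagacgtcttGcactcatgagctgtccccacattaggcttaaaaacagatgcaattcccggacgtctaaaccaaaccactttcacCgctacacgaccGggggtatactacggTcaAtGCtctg

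MTRNR2L8 (shown from chr11:10508870-10508989, minus strand) and MTRNR2L12 (chr3:96617917-96618036, minus strand) are copies of MT-RNR2, the large ribosomal RNA of mitochondria, and are named for a short reading frame like that of the peptide humanin. Capitals mark positions at which the 3 sequences are not all alike. Within these 120 bases MTRNR2L8 carries 4 substitutions and MTRNR2L12 carries 3, of which G213A and G218A are shared by both copies.
MTRNR2L8: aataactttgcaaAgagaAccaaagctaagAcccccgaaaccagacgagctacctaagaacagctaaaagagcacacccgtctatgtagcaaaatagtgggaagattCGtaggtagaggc
MTRNR2L12: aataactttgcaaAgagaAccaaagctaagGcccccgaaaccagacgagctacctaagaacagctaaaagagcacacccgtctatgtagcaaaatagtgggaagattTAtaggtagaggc
MT-RNR2: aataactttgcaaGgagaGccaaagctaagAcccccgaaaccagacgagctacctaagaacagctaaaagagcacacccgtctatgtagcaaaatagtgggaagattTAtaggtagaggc

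Library totals were 46539070, 46263488 and 61058282 counts in shTFAM and 43286024, 50910536 and 47868918 in shCtrl. Small counts in the table came in steps. A count of 4 was 1.79 times as frequent as a count of 3 and 3.56 times as frequent as a count of 5. What 1 count stands for is therefore not known, and no counting interval is given. On the first principal component (56.4% of variance) the groups separated, and on the second (15.0%) shCtrl 3 stood apart from shCtrl 1 and 2. TFAM itself was lower in shTFAM (61.5 ± 4.47 CPM) than in shCtrl (82.2 ± 6.70 CPM, SD, n = 3 each), a log2 fold change of -0.42 (SE 0.107, adjusted p of 0.0377 by edgeR) whose call was lost when any 1 library was left out (edgeR adjusted p 0.0676 to 0.0948). Of 16 liver markers, 11, among them ALB, AFP, APOA1 and APOB, were below 0.1 FPKM in every library, and only KRT8 and KRT18 reached 1 FPKM in all 6. Summed leukocyte markers were 13.01 to 18.2 FPKM in shTFAM against 4.51 to 6.78 FPKM in shCtrl. PTPRC, CD3E and LYZ of that list were listed at 0 throughout, and CD68 alone reached 1 FPKM in all libraries. Summed stellate and fibroblast markers overlapped between groups (41.4 to 45.2 FPKM in shTFAM, 28.9 to 43.3 FPKM in shCtrl), and COL1A2 and LRAT were listed at 0 throughout. Of that list, PDGFRB (5.03 to 6.05 FPKM in shTFAM, 1.81 to 1.93 FPKM in shCtrl), COL3A1 (0.346 to 0.701 FPKM in shTFAM, 0.0245 to 0.0518 FPKM in shCtrl) and DES (6.32 to 6.95 FPKM in shTFAM, 5.26 to 5.61 FPKM in shCtrl) did not overlap. COL1A1, the member with the most FPKM, overlapped (27.9 to 32.7 FPKM in shTFAM, 21.3 to 34.9 FPKM in shCtrl). ACTA2 overlapped too, with its highest values in shCtrl (0.354 to 0.450 FPKM in shTFAM, 0.378 to 0.889 FPKM in shCtrl). The part of these markers in the results was not tested.

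The copies took a smaller share of all counts in shTFAM cells, and nearly all of it came from a single insertion. They held 0.289%, 0.363% and 0.222% of counts in the shTFAM libraries, against 0.541%, 0.519% and 0.483% in the shCtrl libraries. Every shTFAM library was below every shCtrl library, and the means were 0.291% ± 0.0710 in shTFAM and 0.514% ± 0.0296 in shCtrl (SD, n = 3 each). mtDNA itself held 8.65%, 10.7% and 7.91% of counts in shTFAM against 13.5%, 14.2% and 10.1% in shCtrl, and these ranges overlapped. For every 100 counts on mtDNA the copies had 3.34, 3.40 and 2.80 in shTFAM and 4.02, 3.66 and 4.79 in shCtrl, again without overlap. In these bulk libraries fewer cells with the RNA and less RNA per cell cannot be told apart. Without MTCO1P12, the copy with the most counts, the shares differed by -0.106 percentage points, against -0.223 with it. The shares themselves were then smaller, with means of 0.162% in shTFAM and 0.269% in shCtrl. Every shTFAM library was still below every shCtrl library.

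Grouping copies that lie within 10 kb of each other gave 150 insertion sites, of which 34 had counts. A block on chromosome 1 (hg38, 629062 to 634922, plus strand) held 98.3% to 99.4% of all copy counts in shTFAM and 97.8% to 99.1% in shCtrl. It carries 7 copies in the order of the mitochondrial genome, MTND1P23, MTND2P28, MTCO1P12, MTCO2P12, MTATP8P1, MTATP6P1 and MTCO3P12, and 1150818 counts in all. The next block, on chromosome 5 (134923303 to 134928527) in an intron of PCBD2, a carbinolamine dehydratase, carries 6 copies and 9009 counts. MTRNR2L8 followed with 3150 counts, MTRNR2L12 with 2398, MTCO2P2 with 1050 and MTRNR2L10, on chromosome X (55181392 to 55182442), with 734. The 7 other rows within 100 kb of the chromosome 1 block held 2888 counts together. Of these, 4 were listed at 0, and AL669831 (ENSG00000228327) held 2745. An antisense gene of the same clone name covers the whole block with 5 to 32 counts in each library, and the strand setting of the counting was not stated in the sources used here.

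Of the 64 copies, 13 reached the mean of 0.5 FPKM required for testing, and all 13 would have reached it on the shTFAM mean alone as well as on the shCtrl mean alone. In shTFAM cells 7 of the 13 were lower by edgeR's quasi-likelihood test at an adjusted p of 0.05, against 6.59% of all 14708 rows tested. None was higher (11.3% of all rows), and none was higher at an unadjusted p below 0.05, with DESeq2 or with limma. The log2 fold change was negative for 12 of 13 with a median of -1.44, where the median of all tested rows was -0.015. It was below -1 for 9 of 13, against 4.3% of all rows. In 10 of 13 every shTFAM library lay below every shCtrl library, against 20.1% of all rows. Several of the 13 share a block or a parent, so they are not 13 separate observations beside these shares of all rows. The number called depended on single libraries: without shCtrl 1 or without shCtrl 2 it was 4, and without shCtrl 3, the library that stood apart, it was 10.

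Within the chromosome 1 block all 3 copies of cytochrome c oxidase genes were lower in shTFAM. MTCO1P12 (ENSG00000237973, 631074 to 632616), a full-length copy of the gene of the catalytic subunit, had 1301, 1559 and 1110 CPM in the shTFAM libraries and 2662, 2490 and 2038 CPM in the shCtrl libraries. The groups did not overlap, and the copy was 1.81-fold lower in shTFAM, a log2 fold change of -0.86 (SE 0.162, adjusted p of 0.0151 by edgeR). Its call was lost without shCtrl 1 (edgeR adjusted p 0.0501) or shCtrl 2 (0.0519). MTCO3P12 (ENSG00000198744, 634376 to 634922), which corresponds to the first part of MT-CO3, had 39.3, 38.6 and 37.4 CPM in shTFAM and 138, 166 and 120 CPM in shCtrl. The shTFAM libraries were nearly equal and all far below shCtrl, 3.68-fold lower (edgeR log2 fold change -1.88, SE 0.134, adjusted p 0.00106). MTCO2P12 (ENSG00000229344, 632757 to 633438) had 27.5, 24.2 and 22.3 CPM in shTFAM and 77.4, 92.1 and 57.1 CPM in shCtrl. It was 3.06-fold lower, again without overlap (edgeR log2 fold change -1.61, SE 0.188, adjusted p 0.00360).

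Of the 3 tested copies of complex I and ATP synthase genes in the same block, 1 was lower in shTFAM. MTND1P23 (ENSG00000225972, 629062 to 629433), a copy of the last part of MT-ND1, had 30.1, 30.6 and 37.0 CPM in shTFAM and 72.2, 79.0 and 65.6 CPM in shCtrl. It was 2.22-fold lower (edgeR log2 fold change -1.15, SE 0.126, adjusted p 0.00317), with no overlap. MTND2P28 (ENSG00000225630, 629640 to 630683) had 517, 688 and 301 CPM in shTFAM and 786, 699 and 923 CPM in shCtrl. The shTFAM libraries spread widely and came close to shCtrl 2, and the log2 fold change of -0.68 did not pass (SE 0.281, edgeR adjusted p 0.136). MTATP6P1 (ENSG00000248527) had 947, 1370 and 784 CPM in shTFAM and 1422, 1487 and 1415 CPM in shCtrl. All shTFAM libraries were below shCtrl, shTFAM 2 only slightly, and the log2 fold change of -0.48 did not pass (SE 0.198, edgeR adjusted p 0.134). Without shTFAM 2 it passed (edgeR adjusted p 0.0255). MTATP8P1, whose sequence overlaps that of MTATP6P1, had only 3, 8 and 3 counts in shTFAM and 4, 4 and 4 counts in shCtrl, below the level tested.

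**Figure D1:**
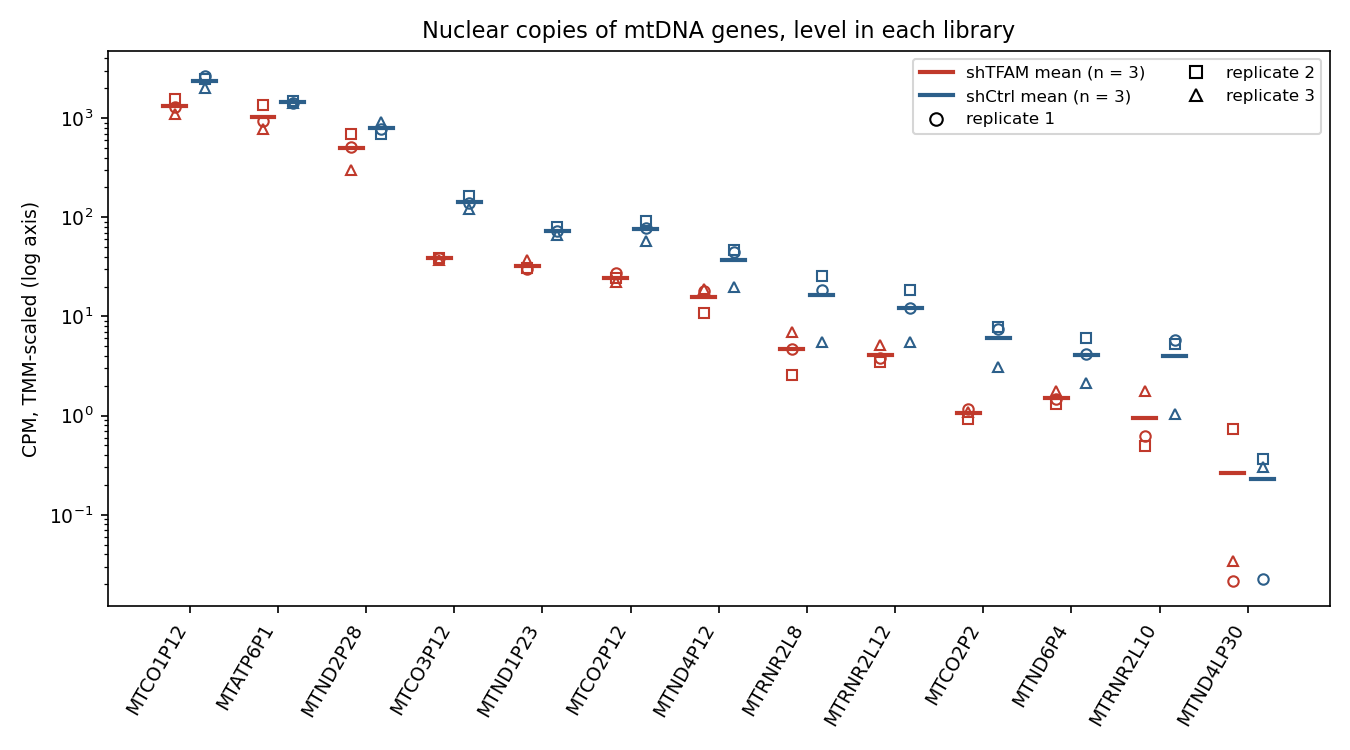
Level of the 13 tested copies in each library, in CPM scaled with TMM factors on a log axis, with shTFAM (red) left of shCtrl (blue) for each copy; open symbols are libraries and bars are means of 3. MTCO3P12 shows tight groups that lie far apart, while in MTRNR2L8, MTRNR2L10 and MTND4LP30 the groups overlap.

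Outside chromosome 1, where counts were lower, 3 of the 7 tested copies were lower in shTFAM. MTCO2P2 (ENSG00000267541) had 1.16, 0.932 and 1.08 CPM in shTFAM and 7.42, 7.87 and 3.11 CPM in shCtrl. It was 5.78-fold lower with no overlap (edgeR log2 fold change -2.53, SE 0.385, adjusted p 0.00777). SMAD2, which contains it on the same strand, had a log2 fold change of 0.33 that did not pass (edgeR adjusted p 0.123). In the chromosome 5 block, MTND6P4 (ENSG00000249119) had 1.46, 1.31 and 1.77 CPM in shTFAM and 4.22, 6.03 and 2.12 CPM in shCtrl, a log2 fold change of -1.44 (SE 0.394, edgeR adjusted p 0.0459). MTND4P12 (ENSG00000247627), of the opposite strand, had 18.0, 10.8 and 18.7 CPM in shTFAM and 44.6, 47.0 and 19.9 CPM in shCtrl. Its groups did not overlap, but shCtrl 3 was close to the shTFAM libraries, and the log2 fold change of -1.23 narrowly missed (SE 0.357, edgeR adjusted p 0.0540). PCBD2, around them, stood at -0.04 (edgeR adjusted p 0.896). MTND4LP30, a copy of MT-ND4L that overlaps the start of MTND4P12, had 1, 33 and 2 counts in shTFAM and 1, 19 and 15 counts in shCtrl, and no difference could be read from it (edgeR log2 fold change 0.14, SE 1.295, adjusted p 0.956).

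The copies of mitochondrial ribosomal RNA had low shTFAM values and 1 divergent shCtrl library. MTRNR2L12 (ENSG00000269028) had 3.78, 3.46 and 5.13 CPM in shTFAM and 12.3, 18.3 and 5.53 CPM in shCtrl, a log2 fold change of -1.55 (SE 0.421, edgeR adjusted p 0.0455). MTRNR2L8 (ENSG00000255823) had 4.64, 2.55 and 7.01 CPM in shTFAM and 18.7, 25.3 and 5.51 CPM in shCtrl. MTRNR2L10 (ENSG00000256045) had 0.624, 0.488 and 1.76 CPM in shTFAM and 5.85, 5.22 and 1.03 CPM in shCtrl. In both of the last copies shCtrl 3 lay inside the shTFAM range, and the log2 fold changes of -1.80 (SE 0.584, edgeR adjusted p 0.0742) and -2.06 (SE 0.737, edgeR adjusted p 0.0957) did not pass. Without shCtrl 3 both passed, at -2.22 (edgeR adjusted p 0.0244) for MTRNR2L8 and -2.53 (0.0377) for MTRNR2L10, and so did MTND4P12 at -1.54 (0.0171). The calls of MTRNR2L12 and MTND6P4 were lost without any 1 of the libraries other than shCtrl 3, with edgeR adjusted p up to 0.125 for MTRNR2L12 and 0.133 for MTND6P4. The parent MT-RNR2 showed the same outlying library, with 7736, 8332 and 11775 CPM in shTFAM and 11975, 12746 and 3474 CPM in shCtrl.

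The remaining copies were at the edge of detection. MTND5P11 had 20, 31 and 24 counts in shTFAM and 58, 46 and 31 counts in shCtrl, and MTCYBP18 had 12, 0 and 0 counts in shTFAM and 10, 20 and 30 counts in shCtrl, both under the level tested. The 49 others had summed counts of 2 to 61, never more than 26 in a library, and 2 of them had a count in every library. Their sums were 105, 111 and 157 counts in shTFAM and 156, 112 and 58 counts in shCtrl, and the mean CPM was lower in shTFAM for 24 and higher for 25. When all 30158 rows with a count were fitted, 5 of the 64 copies were lower (MTCO1P12, MTCO3P12, MTND1P23, MTCO2P12 and MTCO2P2) and 0 higher by edgeR's adjusted p, against 2.29% of all rows of that fit lower and 4.61% higher. At an unadjusted p below 0.05, 2 of the 64 were higher, against 11.2% of all its rows, a share the copies did not exceed. These, picked out after their values were seen, were MTND5P1, with 8, 7 and 19 counts in shTFAM and 0 in every shCtrl library, and MTCO1P15, with 3, 4 and 4 counts in shTFAM and 0 in every shCtrl library.

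The second question was whether each copy moved with its parent. All 13 mRNAs of mtDNA had negative log2 fold changes, but 10 did not pass edgeR's test. The 3 that were lower, against 6.59% of all rows tested, were MT-ND3 (-0.90, adjusted p 0.0124), MT-CO3 (-0.70, 0.0378) and MT-CYB (-0.63, 0.0311). None was higher, and the number called lower was 1 without shTFAM 1, shTFAM 3, shCtrl 1 or shCtrl 2. MT-RNR2 stood at -0.02 (SE 0.450, edgeR adjusted p 0.983) and MT-RNR1, the small ribosomal RNA, at -0.38 (0.417). To compare within each library, the parent's count replaced the library size in the edgeR fit, so that the tested value is the log2 fold change of the copy minus that of the parent. Of the 13 copies, 8 were lower in shTFAM relative to their parent and none was higher. In that fit 6.6% of all rows were called lower, but rows other than the copies kept the library size as reference, so that share is no background for a difference between copy and parent. The ratio of copy to parent was lower in every shTFAM library than in any shCtrl library for 11 of 13, and the median difference was -0.88. Levels were that far apart in 20.1% of all rows, but a share of levels is no background for ratios either.

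Expressed as FPKM, which is scaled to gene length, MTATP6P1 had 58.8%, 67.5% and 61.9% of the level of MT-ATP6 in shTFAM and 69.8%, 69.8% and 71.2% in shCtrl. The shCtrl libraries were nearly identical and all above shTFAM, but the difference of -0.16 did not pass (SE 0.0929, edgeR adjusted p 0.255). In FPKM, MT-ATP6 was itself low beside MT-ATP8, with which it shares an mRNA. It had 1980 FPKM in shTFAM and 2620 FPKM in shCtrl, where MT-ATP8 had 6107 FPKM in shTFAM and 9541 FPKM in shCtrl. Their counts were closer: 74945, 91415 and 73563 for MT-ATP6 in shTFAM, against 64407, 95845 and 63040 for MT-ATP8. In shCtrl they were 90852, 109876 and 98576 against 101937, 121004 and 108153. MT-ATP8 is 207 bases long and MT-ATP6 681, and the part of gene length in the FPKM gap was not tested. MTND2P28 had 11.9%, 12.96% and 10.5% of the level of MT-ND2 in shTFAM and 12.9%, 10.5% and 16.0% in shCtrl. These ranges overlapped, and the difference of -0.15 (SE 0.167, edgeR adjusted p 0.557) was within the spread. MTCO1P12 had 7.22%, 7.24% and 6.83% of the level of MT-CO1 in shTFAM and 10.1%, 8.76% and 10.1% in shCtrl. All shTFAM libraries were lower, by a difference of -0.44 (SE 0.10, edgeR adjusted p 0.0265). That call was lost without shTFAM 1, 2 or 3 or without shCtrl 1, with edgeR adjusted p from 0.0674 to 0.0856.

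The other 3 tested copies of the block were all lower relative to their parents. MTCO3P12 had 0.704%, 0.511% and 0.769% of the level of MT-CO3 in shTFAM and 1.47%, 1.56% and 1.29% in shCtrl, 2.18-fold lower (difference -1.12, SE 0.167, edgeR adjusted p 0.00721). MTND1P23 had 2.36%, 1.92% and 3.01% of the level of MT-ND1 in shTFAM and 4.52%, 4.66% and 4.26% in shCtrl, 1.84-fold lower (-0.88, SE 0.166, edgeR adjusted p 0.0151). MTCO2P12 had 0.442%, 0.281% and 0.469% of the level of MT-CO2 in shTFAM and 0.819%, 0.868% and 0.699% in shCtrl, 2.00-fold lower (-1.002, SE 0.203, edgeR adjusted p 0.0193). In these 3 copies the groups were well apart in every library. The call of MTND1P23 was lost without shCtrl 2 (adjusted p of 0.0517 by edgeR) and against the sum of the 13 mtDNA mRNAs (-0.68, 0.0540), and that of MTCO2P12 without shCtrl 1 (0.0566) or shCtrl 2 (0.0607).

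**Figure D2:**
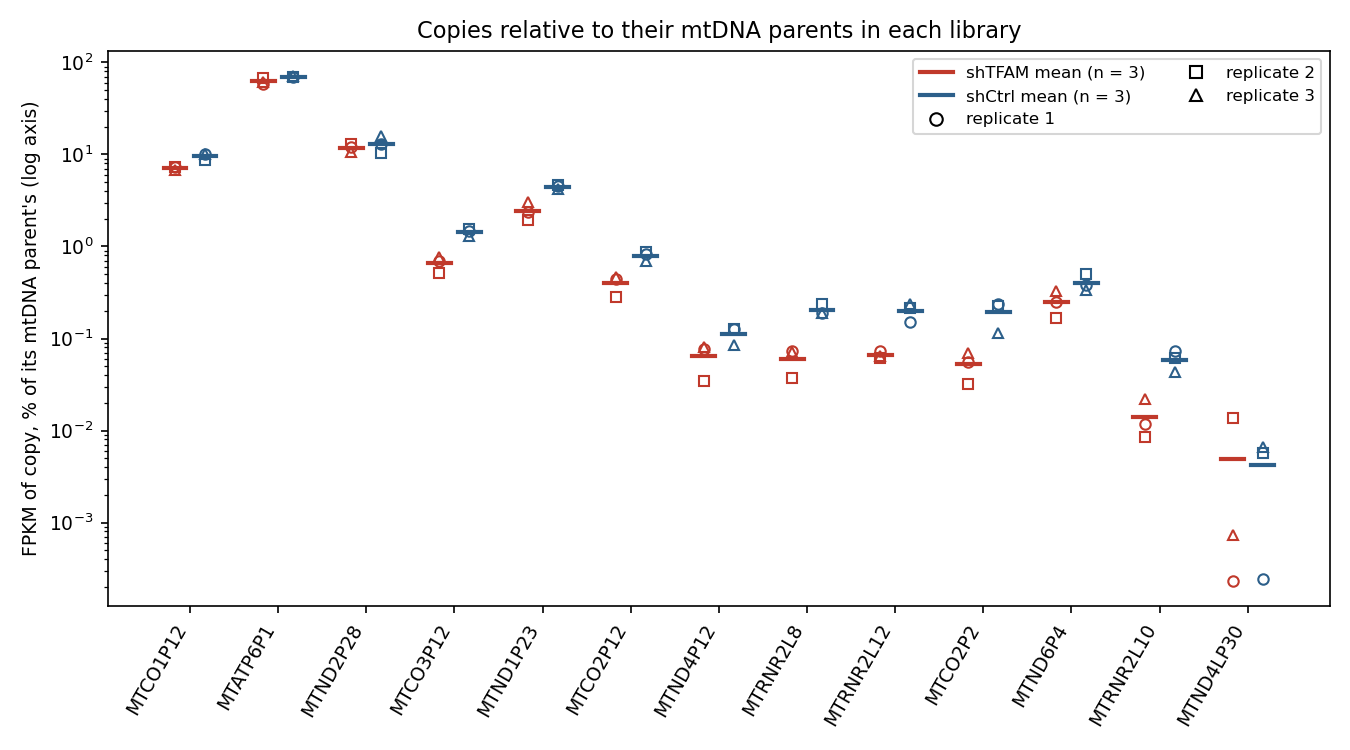
FPKM of each tested copy as a percentage of its parent's FPKM in the same library, on a log axis, with shTFAM (red) left of shCtrl (blue); open symbols are libraries and bars are means of 3. The ribosomal RNA copies, whose CPM overlapped between groups in 2 of 3 cases, separate once each library is set against its own MT-RNR2.

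Relative to MT-RNR2 the ribosomal RNA copies differed by about as much as in level, with less spread between libraries. MTRNR2L8 had 0.0724%, 0.0369% and 0.0718% of the level of MT-RNR2 in shTFAM and 0.188%, 0.240% and 0.191% in shCtrl. Here shCtrl 3 lay with the other shCtrl libraries, and the copy was 3.41-fold lower relative to its parent (difference -1.77, SE 0.282, edgeR adjusted p 0.00896). MTRNR2L12 had 0.0725%, 0.0617% and 0.0647% in shTFAM and 0.152%, 0.214% and 0.236% in shCtrl, 3.02-fold lower (-1.59, SE 0.210, edgeR adjusted p 0.00496). MTRNR2L10 had 0.0119%, 0.0085% and 0.0221% in shTFAM and 0.0723%, 0.0607% and 0.0432% in shCtrl, 4.09-fold lower (-2.03, SE 0.399, edgeR adjusted p 0.0171). All 3 share 1 parent, so these are not separate comparisons of the denominator. Set against the sum of the 13 mtDNA mRNAs in place of MT-RNR2, none of the 3 passed and the differences were smaller: -1.19 for MTRNR2L8 (edgeR adjusted p 0.191), -0.99 for MTRNR2L12 (0.1202) and -1.44 for MTRNR2L10 (0.210). The folds relative to the parent thus depend on MT-RNR2 as the denominator.

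Of the other copies, MTCO2P2 had 0.0560%, 0.0322% and 0.0691% of the level of MT-CO2 in shTFAM and 0.238%, 0.225% and 0.115% in shCtrl, 3.66-fold lower (-1.87, SE 0.391, edgeR adjusted p 0.0208). MTND4P12 stood at -0.81 (SE 0.331, edgeR adjusted p 0.131) and MTND6P4 at -0.70 (SE 0.311, edgeR adjusted p 0.156) relative to their parents, neither past the threshold. MTND4LP30 was at 0.28 (SE 1.24, edgeR adjusted p 0.900). The number of copies called lower than their parent was 4 without shCtrl 1 or without shCtrl 2, 5 without shTFAM 1, and 8 without shCtrl 3. MTCO3P12, MTRNR2L8 and MTRNR2L12 passed whichever library was left out. The call of MTCO2P2 was lost without shTFAM 1 or 2 or shCtrl 1 or 2, and that of MTRNR2L10 without shTFAM 1 or shCtrl 1 or 2, with edgeR adjusted p up to 0.0648 for MTCO2P2 and 0.0556 for MTRNR2L10. A two-sided exact permutation test of each log2 ratio over 3 against 3 libraries cannot go below p = 0.1, which 11 of 13 pairs reached, 0.118 after Benjamini-Hochberg adjustment over the pairs.

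**Figure D3:**
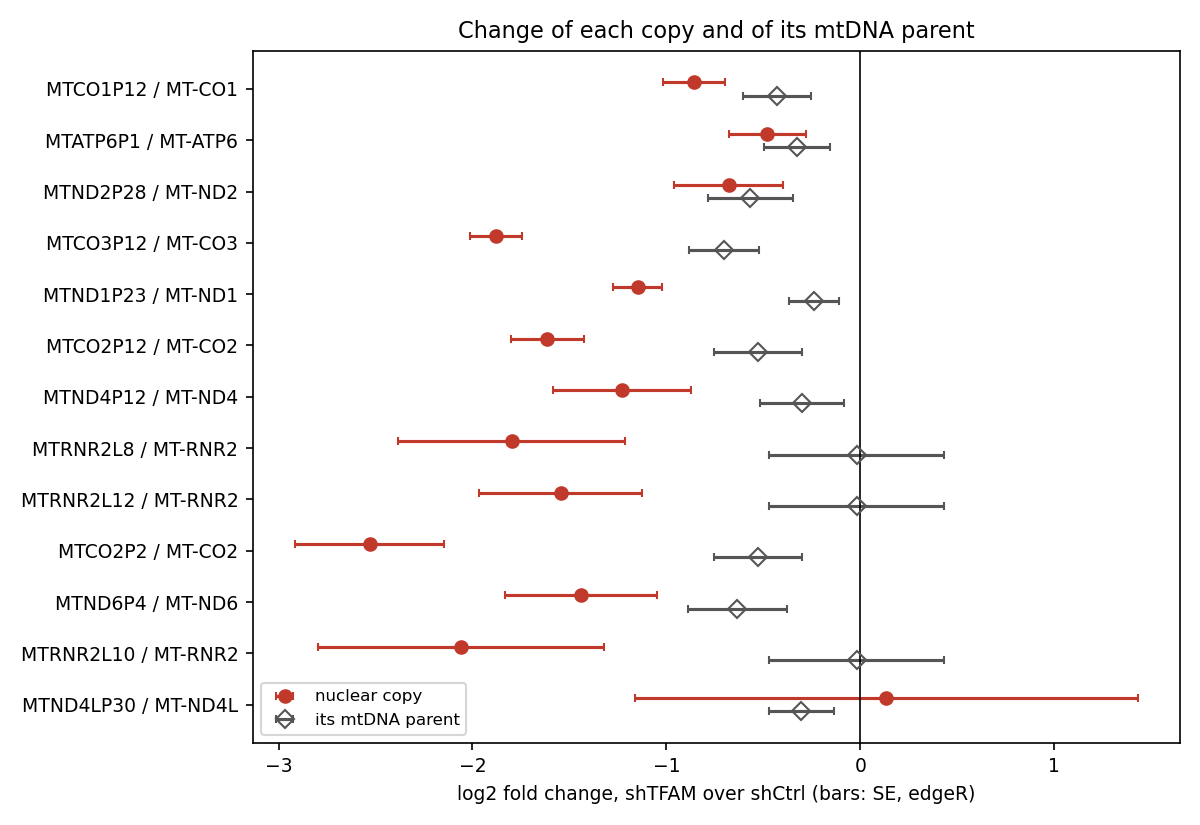
Log2 fold change, shTFAM over shCtrl, of each tested copy (red) and of its mtDNA parent (open grey diamonds), with bars for the SE of the edgeR fit. All copies but MTND4LP30 lie to the left of their parents. The values drawn are those of the first fit. In the fit with the parent's count as offset, the differences of these copies ran from -0.15 for MTND2P28 to -2.03 for MTRNR2L10.

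Copies with counts were on the whole closer in sequence to their parents. Each of the 64 copies matched its own named parent best. Identity over the aligned bases had a median of 77.8% in the 64, against 74.5% (64.3% to 93.5%) in the 344 without counts. It was 95.6% in the 15 copies with the most counts and 76.7% in the other 49. All 13 copies with at least 95% identity had counts, and 44 of the 383 under 90% had any. High identity did not always come with many counts: MTATP8P1 (97.6% identical, 26 counts in all), MTCO1P40 (96.0%, 33) and MTRNR2L2 (98.5% over the aligned part of a short row, 11) had few. MTRNR2L10 had 734 counts at 81.2% identity, taken over a GENCODE sequence of 1530 bases that is longer than its listed span (55181392 to 55182442). As the counts chose the 64, these values are a description.

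**Figure D4:**
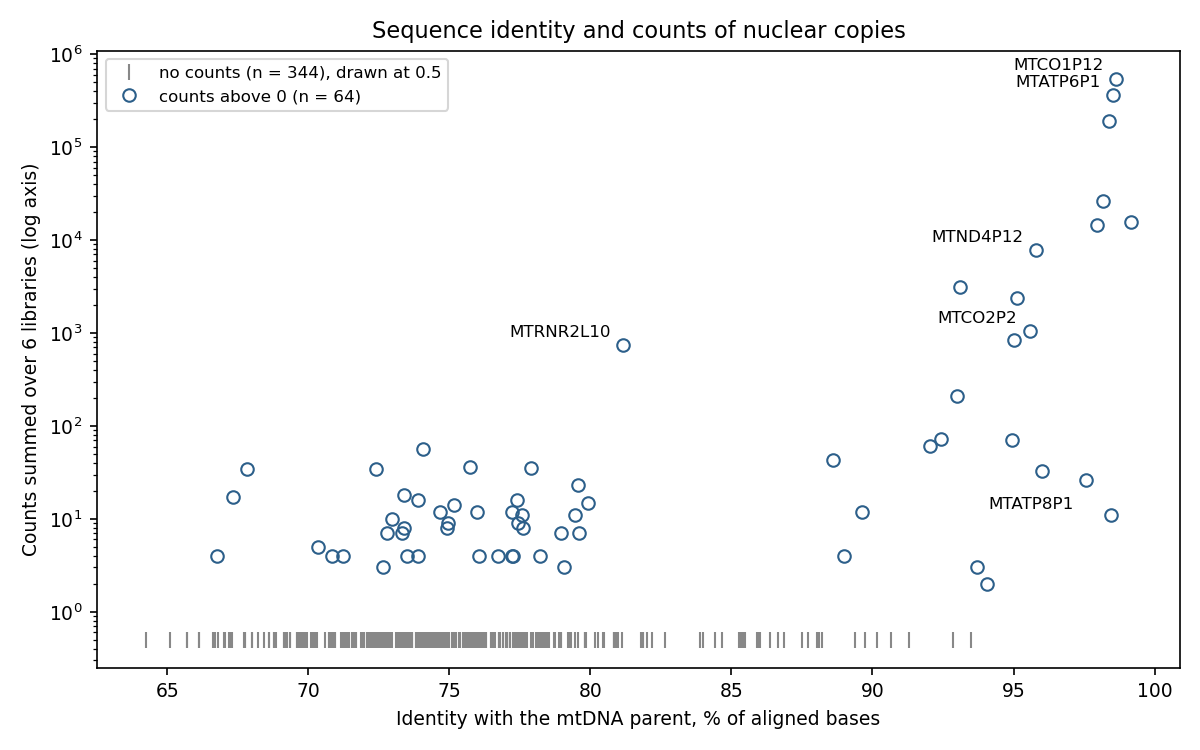
Identity of each of the 408 copies with its mtDNA parent (x axis, percent of aligned bases) against its counts summed over the 6 libraries (y axis, log), with the 344 copies without counts as grey ticks at the bottom. Above 95% identity no copy is without counts, and the 3 copies with the most counts are all above 98%.

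A read of 150 bases, the length given in the labels' protocols, fits copy and parent equally where an identical stretch is at least that long. Such stretches occurred in 3 copies: 202 of 1394 possible 150-base windows of MTCO1P12, 140 of 895 of MTND2P28 and 9 of 223 of MTND1P23 were identical in the parent. Their longest identical runs within the gene sequences were 245, 266 and 158 bases. That of MTND2P28 starts at base 1 of copy and parent, and sequence beyond the ends of the genes was not compared. Windows of 75 bases were shared by 10 copies, all with counts, and 9 of these were among the 12 copies with the most counts. MTATP6P1, the copy with the highest level relative to its parent, shared none of its 532 windows of 150 bases and 170 of 607 windows of 75 bases. MTCO2P2, MTND4P12 and MTRNR2L10 shared no 75-base window, with longest runs of 74, 71 and 62 bases. All these windows stand for single reads. The libraries were sequenced as paired reads, and the reads of a pair were not considered together. How the authors' counting treated reads that fit several places was not stated in the sources used here, and its part in the differences between copies and parents was not tested.

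Across the 13 tested copies, those closer to their parents had higher levels relative to them in shCtrl (Spearman's rho 0.81 between identity and the percentage of the parent's FPKM; 0.69 with identity over the full length of the copy). Between identity and the log2 fold change of the copy minus that of the parent, rho was 0.43 (0.60 over the full length). The 13 points share the same libraries, several share a block or a parent, and the second measure of each pair contains the parent's count. These coefficients are given as a description.

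**Figure D5:**
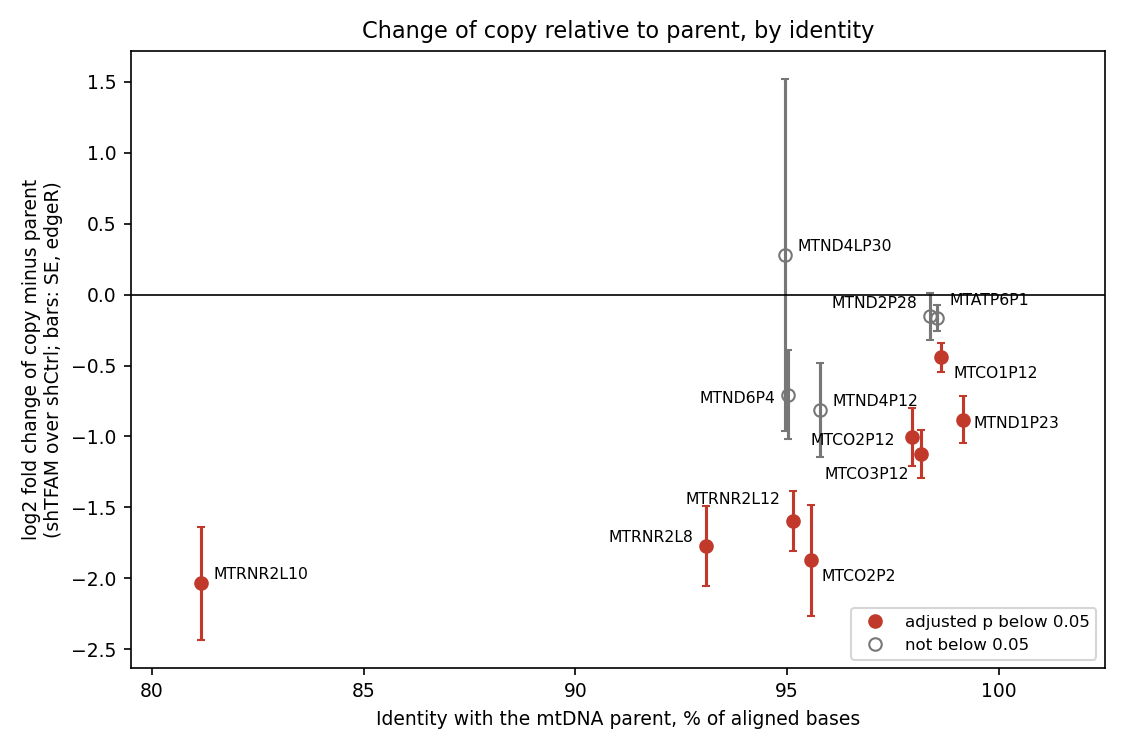
Identity with the mtDNA parent (x axis, percent) against the log2 fold change of the copy minus that of its parent (y axis, shTFAM over shCtrl, bars for SE) for the 13 tested copies, filled where edgeR's adjusted p was below 0.05. The 6 tested copies of the chromosome 1 block lie at 98.0% to 99.1% identity and range from -1.12 for MTCO3P12 to -0.15 for MTND2P28.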

How the data were processed

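The authors deposited 1 table with whole-number counts and FPKM (scaled to gene length and depth) for 6 libraries, per the file headers. Libraries were strand-marked with dUTP after poly(A) selection and sequenced as paired reads of 150 bases, per the labels' protocols. HISAT2 2.0.4, StringTie 1.3.4d, Bowtie 0.12.2 and cutadapt 1.9 are listed without a stated role in the submitters' processing notes, as are builds hg38 and mm8. The counting tool, its annotation, its strand setting and its treatment of reads that fit several places are not given in the sources used here. After a factor for each row was removed, count and FPKM differed by 1 factor per library (SD at most 0.0017 log2 units over rows above 200 counts).

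The members and lists were chosen with earlier results of these data known. Libraries were grouped by the treatment label. Rows with a mean FPKM of at least 0.5 were tested with edgeR 4.0.16 (quasi-likelihood, TMM factors 0.951 to 1.04, two-sided, Benjamini-Hochberg over all rows; common biological coefficient of variation 0.251), in R 4.3.3. SE is the log2 fold change over the root of F. CPM are counts relative to the TMM-scaled library size, and means are given with SD. The second fit used the log of the parent's count as offset for each copy. Copies named by rule are those past the filter, the 15 with the most counts and those called. MTATP8P1, MTND5P1, MTCO1P15, MTCO1P40 and MTRNR2L2 were named after their values were seen. Sequences came from GENCODE 29 transcripts, found for all 408 copies (403 with the same span as in the table), and were aligned locally with Biopython 1.88. Of the tested copies, MTRNR2L8 and MTRNR2L10 had GENCODE sequences longer than their listed spans, and their identity values cover the longer sequences. The fits were checked on simulated counts. No replicate pair agreed within sampling noise (chi-square per degree of freedom at least 34.2). Alternatives were DESeq2 1.42.0, limma 3.58.1 on log2 FPKM, other scalings and filters, and each library left out. Figures used matplotlib 3.10.9.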

Additional observations from a re-analysis of the deposited data

How the results depend on the processing

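The number of copies called lower was 7 and ranged from 4 to 10 with 1 library left out, with 4 without shCtrl 1 or shCtrl 2, and from 5 (no filter) to 10 (DESeq2) under the other settings. No copy was called higher under any of them. The difference in the copies' share of counts, -0.223 percentage points, ranged from -0.259 to -0.188 with 1 library left out. Without MTCO1P12 the difference was -0.106, between smaller mean shares of 0.162% in shTFAM and 0.269% in shCtrl. Of the mtDNA mRNAs 3 were called lower, 5 with DESeq2, and 1 to 4 with a library left out (1 without shTFAM 1, shTFAM 3, shCtrl 1 or shCtrl 2). Of the 8 copies called lower than their parent, the count was 4 against the sum of the 13 mtDNA mRNAs, 4 to 8 with a library left out, and 0 with the exact permutation test of the count ratio or the FPKM ratio, whose smallest p is 0.1. The cause of the other changes was not tested.

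Signs changed only where values were near 0 or counts few. MTND4LP30 was at -0.0904 and -0.57 with limma (pseudocounts 1 and 0.1), -0.39 without shCtrl 1, and between -2.93 (without shTFAM 2) and 0.68 with a library left out. Relative to its parent it was -0.25 without shCtrl 1, between -2.56 (without shTFAM 2) and 0.79 with a library left out, -0.35 for the count ratio and -0.20 for the FPKM ratio. MTND2P28 relative to its parent ranged from -0.29 to 0.0169 (without shCtrl 3). MT-RNR2 was 0.0904 and 0.0905 with limma (pseudocounts 1 and 0.1), and 0.08, 0.05, 0.18 and 0.26 without shTFAM 1, shTFAM 2, shCtrl 1 and shCtrl 2, in a range from -0.42 to 0.26. With scaling to counts outside mtDNA and the copies, all tested rows had a median of -0.15, and 8 copies were then called lower.

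The filter leaves 51 copies with too few counts to test. Because the deposited counts come in steps, the precision of a small count is unknown. No paired analysis was possible because the titles of the groups share no replicate numbers. With 3 libraries a group, and leaving 2 in one, calls near the threshold are not stable.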
